A study of Mus musculus with 2 samples.

Results

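The genes described here are those of fibroblast growth factor (FGF) and GDNF signalling: ligands, receptors, the adaptor Frs2, the MAP kinases and their upstream kinases, ETS transcription factors, and the Sprouty, Spred and dual specificity phosphatase genes that limit the pathway. They were picked by symbol and gene type, as the protein_coding entries of the deposited table named Fgf, Fgfr, Frs, Dusp, Spry, Spred, Etv1, Etv4, Etv5, Gdnf, Ret, Gfra, Mapk or Map2k. The members, and the groups and lists used below, were chosen with earlier results of these data known. The rule found 50 of the 10627 listed genes. Total RNA was sequenced from nephron progenitors, cells of the cap mesenchyme that express Six2 and form the nephrons of the kidney, sorted by flow cytometry at embryonic day 15.5 from mice of a mixed CD1 and C57BL background. The WT library came from Six2CreGFP+;p53+/+ embryos and the KO library from Six2CreGFP+;p53f/f embryos, so both carried the Six2 transgene with Cre and GFP. In KO, Cre deletes floxed p53 (Trp53) only in cells where Six2 is or has been active. There was 1 library per genotype, so no value here has a replicate check and no p-value is given for the genotypes; how many embryos each library pooled is not given in the sources used here.

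FGF ligands bind receptor tyrosine kinases that signal through Frs2 and Ras to a cascade of kinases that ends in ERK. ERK activity induces ETS factors and also its own inhibitors, among them Sprouty and Spred proteins and the phosphatases Dusp4, Dusp5 and Dusp6, which makes the transcripts of these inhibitors a common readout of the pathway. In the kidney FGF signals sustain nephron progenitors, and Gdnf made by these cells acts through Ret and Gfra1 on the neighbouring ureteric bud. Every listed gene has a corrected p-value under 0.05 in the authors' deposited table, and Fgf9, Fgf20 and Gfra1, among others of these families, are not analysed here.

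Each value is a read density in RPKM, reads scaled to the length of the gene and the size of the library. The libraries held about 91200000 reads (WT) and 85600000 reads (KO), as worked out from the step that 1 read adds to the density. The median gene of the 50 had about 5501 reads in WT and 4696 in KO. Differences are log2(KO + 1) minus log2(WT + 1), a measure that understates the difference of low genes. Ratios of densities are given with exact 95% intervals that cover counting error only. All 49 such intervals of members exclude 1. The p-value limit on the listed genes made that likely, so an interval is no separate support for a difference. Genes with a mean density at or above 7.30 RPKM, the median of all listed genes, are called over the floor: 36 of the 50 were. Trp53 measured 33.9 RPKM in WT and 5.38 in KO, in the direction of its label. Over 5263 genes above the floor, the difference moved with the GC content of the transcript (Spearman's rho across genes -0.52), from a median of 0.17 in the lowest of 5 equal groups by GC to -0.15 in the highest, so groups below are also given after an adjustment for GC and length. Markers of other cell types were lower in KO: all 14 stromal genes (summed density 301 RPKM in WT and 135 in KO), all 13 endothelial genes (16.2 and 7.34), all 11 leukocyte genes (16.6 and 2.37), all 10 erythroid genes (633 and 23.9), all 10 podocyte and tubule genes (72.6 and 21.1) and 14 of 15 ureteric bud genes (77.3 and 61.5 for all 15, and 36.8 and 19.8 without Etv5, the one that was not lower). Among all 10617 listed genes, 3838 (36.1%) were higher in KO and 6779 lower. No marker of these cell types was at 0 in WT and 1, an erythroid gene, was at 0 in KO. The 12 progenitor markers, Gdnf among them, summed to 1201 RPKM in WT and 1257 in KO, with 6 higher and 6 lower. All 12 were over the floor, where 44.2% of all genes were higher. Six2 was at 482 and 509 RPKM and Cited1, a marker of the least differentiated progenitors, at 23.6 and 16.1 RPKM. The part of these cell types in the differences below was not tested, and in bulk RNA fewer cells of a type and less RNA per cell cannot be told apart.

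Of the 36 members over the floor, KO had 22 higher and 14 lower, where 44.2% of all genes over the floor were higher. Their median difference was 0.087, against -0.072 over all genes past the floor, and the same over the protein_coding ones. None was at least 1.5-fold higher or lower on the main measure, and the background at that size was 0.659% higher and 2.41% lower. At a smaller size, a difference of at least 0.32 on the log2 scale, 3 were higher (background 5.07%) and 2 lower (background 7.33%). After adjustment for GC and length, 18 of the 36 were higher, with a median of 0.0016, and 28.1% of all genes were higher. With trimmed bin means in place of bin medians, a setting chosen after seeing the data, 22 of the 36 were higher with a median of 0.056, and 43.3% of all genes were higher. With the authors' scaling, which multiplies the ratio of KO to WT by 1.04, 22 were higher and the background was 46.6%. With the 14 genes under the floor included, 25 of 50 were higher and 25 lower, with a median of -0.020, where 36.1% of all listed genes were higher. The direction of the median over all members thus turned with the floor.

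**Figure D1:**
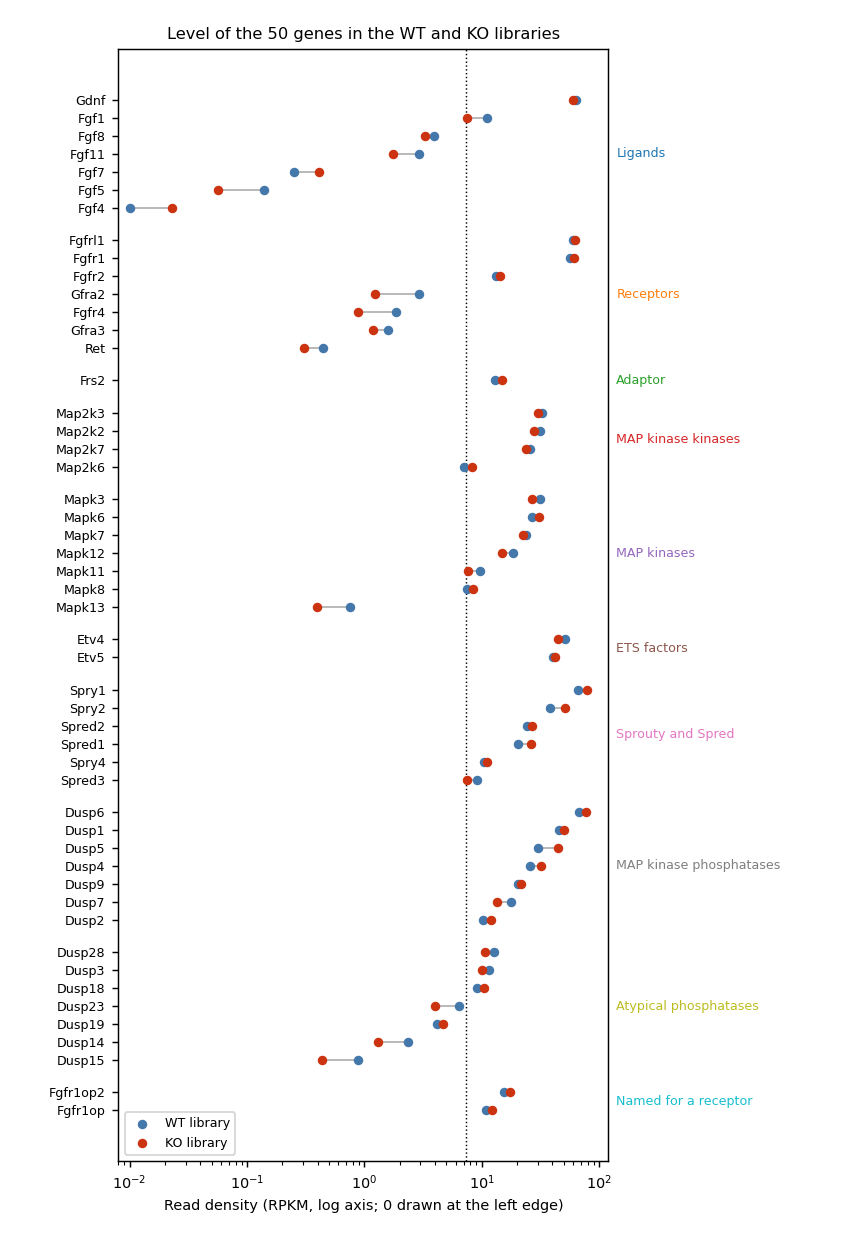
Read density in RPKM (log axis) of the 50 genes in the WT library (blue) and the KO library (red), grouped by role, with the floor of 7.30 RPKM as a dotted line. The 13 Sprouty, Spred and MAP kinase phosphatase genes lie over the floor and 11 of them have the red point to the right, while receptors and ligands spread from 0 to 64.1 RPKM in WT; Fgf4, at 0 in WT, is drawn at the left edge.

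The inhibitors stood mostly on the higher side. Of the 13 genes for Sprouty and Spred proteins and for MAP kinase phosphatases that can bind MAP kinases, all lay over the floor. In KO 11 were higher, with a median difference of 0.21 and a range from -0.40 to 0.56. Of all genes over the floor 44.2% were higher, with a median of -0.072. The other 23 members over the floor had 11 higher and 12 lower and a median of -0.073. The 11 that were higher remained on that side after adjustment for GC and length, where the median of the 13 was again 0.21. They also did so with the authors' scaling, where the median was 0.26. Of all genes over the floor, 28.1% were higher after adjustment, 43.3% with trimmed bin means and 46.6% with that scaling. The inhibitors' transcripts had a median GC content of 55.4%, against 50.2% for all genes over the floor. The median was 56.7% for the MAP kinase phosphatases and 51.2% for the Sprouty and Spred genes. The part of GC content in their differences was not tested. Several of these genes were known to be higher in KO when the set was chosen, so the count describes the 2 libraries and is not independent evidence of a direction.

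Dusp5, a nuclear phosphatase of ERK, had the largest difference on deposited densities among members over the floor (ENSMUSG00000034765, chromosome 19, 53529109 to 53542431, plus strand of GRCm38). It measured 30.1 RPKM in WT (6787 reads) and 44.8 RPKM in KO (9486 reads), a ratio of 1.49 (95% exact interval 1.44 to 1.54). Its difference was 0.56 on the log2 scale, just inside the 1.5-fold size, and 0.64, past it, after adjustment for GC and length, where Fgf1 differed slightly more (-0.65). In the authors' deposited table it was 1.55-fold higher in KO. In the order of level among the 50 genes Dusp5 stood at place 13 in WT and 9 in KO. It took 13.9% of the summed density of the 7 MAP kinase phosphatases in WT and 17.8% in KO. Of its exon bases, 22.1% lie opposite an exon of the antisense gene AC137853.2, and whether the counting used strand is not given in the sources used here.

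Promoter sequence is shown for Dusp5 and, beside it, Spry2, the 2 inhibitors with the largest differences, and for the motif match of Dusp1. The sequences are RefSeq's, on GRCm38.p6, 5′ to 3′ on the gene's strand, and capitals mark matches to a CArG box, the site read by serum response factor, in Dusp5 and to a cyclic AMP response element in Dusp1. The Dusp5 stretch runs from base 250 to base 37 before the start (chr19:53528895-53529108, plus strand), the Spry2 stretch from 250 to 51 (chr14:105896870-105897069, minus strand) and the Dusp1 stretch from 153 to 126 (chr17:26508598-26508625, minus strand).
Dusp5: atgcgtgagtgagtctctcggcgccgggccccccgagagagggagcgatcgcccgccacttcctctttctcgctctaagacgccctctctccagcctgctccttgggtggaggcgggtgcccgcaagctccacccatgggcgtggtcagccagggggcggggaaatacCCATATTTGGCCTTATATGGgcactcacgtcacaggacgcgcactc
Spry2: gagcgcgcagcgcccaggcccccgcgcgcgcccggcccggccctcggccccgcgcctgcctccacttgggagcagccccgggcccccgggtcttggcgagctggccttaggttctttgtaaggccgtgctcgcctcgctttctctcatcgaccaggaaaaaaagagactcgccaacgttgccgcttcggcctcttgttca
Dusp1: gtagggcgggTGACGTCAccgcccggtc

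The Dusp5 stretch holds 2 CArG boxes that adjoin without overlap, at bases 82 to 73 and 72 to 63 before the start, and the Spry2 stretch holds none. RefSeq promoters of 300 bases, from 250 before to 50 after the start, were matched for 36 of the 50 genes (45 promoters), and both strands were searched. A CArG box was in 1 of the 45 (2.22%, Dusp5) and in 1.63% of all 32851 promoters; this motif was chosen after the sequence and the values had been seen. The cyclic AMP response element TGACGTCA was in 1 of 45 (2.22%, Dusp1) and in 1.79% of all. The ETS motif CCGGAAGT, searched with no mismatch, was in 2 (4.44%, Fgfrl1 and Frs2) and in 3.89% of all. Shorter forms of it, such as GGAA, were not searched. The TATA box TATAAA was in 4 (8.89%) and in 13.6% of all, and the p53 half-site in 3 (6.67%, Map2k2, Mapk6 and Mapk8) and in 8.36%. Each share among the members thus rests on at most 4 promoters, and a match is a description of letters only.

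The other MAP kinase phosphatases over the floor were higher in KO with the exception of Dusp7. Dusp4, an ERK-induced nuclear phosphatase, measured 25.5 RPKM in WT and 32.1 in KO (ratio 1.26, 1.22 to 1.30). Dusp6, the cytoplasmic ERK phosphatase that is a standard readout of FGF signalling, was at 66.8 and 78.1 RPKM (ratio 1.17, 1.15 to 1.19). In WT it was the most abundant of the 50 transcripts per length, level with Spry1 within counting error. Dusp1, a phosphatase of JNK and p38 induced early by many stimuli, was at 45.5 and 50.2 RPKM (ratio 1.10, 1.08 to 1.13). Dusp2, also nuclear, was at 10.2 and 11.97 RPKM (ratio 1.17, 1.10 to 1.248). Dusp9 was at 20.4 and 21.6 RPKM (ratio 1.06, 1.02 to 1.10). Its reads numbered 5054 in WT and 5028 in KO, and the KO library was the smaller one. Dusp7, a cytoplasmic ERK phosphatase, was lower in KO, at 17.9 and 13.4 RPKM (ratio 0.747, 0.716 to 0.778), and its difference of -0.40 was -0.31 after adjustment. For the 6 that were higher adjustment widened the difference, to between 0.15 (Dusp9) and 0.64 (Dusp5), and the median of the 7 went from 0.21 to 0.23.

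Sprouty and Spred proteins block the path from receptor to ERK. Spry2 (ENSMUSG00000022114, chromosome 14, 105891949 to 105896819, minus strand) measured 38.2 RPKM in WT and 51.7 in KO (ratio 1.35, 1.31 to 1.39). Spry1, which in the kidney restrains Ret signalling in the ureteric bud (ENSMUSG00000037211, chromosome 3, 37639947 to 37644598, plus strand), was at 66.6 and 79.5 RPKM (ratio 1.19, 1.17 to 1.22). Spry1 was the most abundant of the 50 transcripts in KO, level with Dusp6 within counting error, and 24.4% of its exon bases lie opposite those of Gm42922. The level of Spry1 was 1.74 times that of Spry2 in WT and 1.54 times in KO. Spry4 was at 10.5 and 11.1 RPKM (ratio 1.06, 1.02 to 1.10).

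Spred1 (ENSMUSG00000027351, chromosome 2, 117121374 to 117182279, plus strand) measured 20.4 RPKM in WT and 26.3 in KO (ratio 1.29, 1.26 to 1.32), and Spred2 at 24.5 and 26.6 RPKM (ratio 1.08, 1.06 to 1.11). Spred3 was on the other side, at 9.19 and 7.51 RPKM (ratio 0.818, 0.784 to 0.852). Adjustment for GC and length took Spred1, with a GC content of 41.2%, from 0.35 to 0.074 and Spry2 from 0.42 to 0.28, while Spry1, at 56.7% GC, went from 0.25 to 0.34. The median of the 6 Sprouty and Spred genes went from 0.18 to 0.096, with the same 5 on the higher side.

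**Figure D2:**
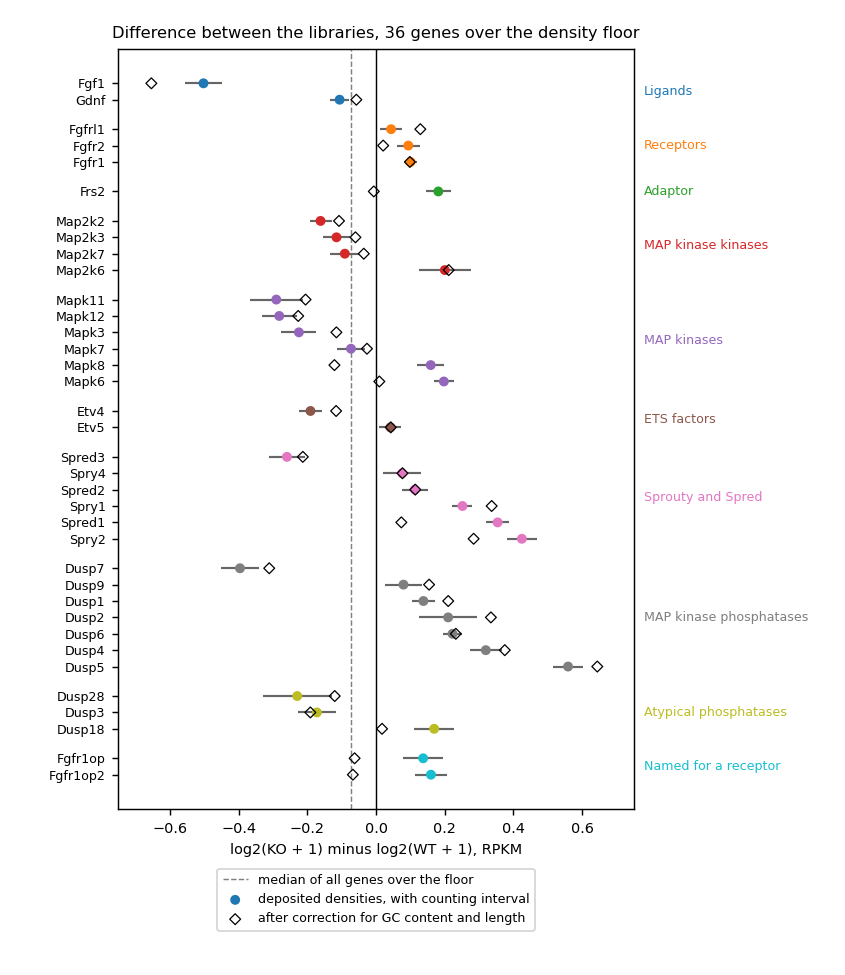
Difference between the KO and WT libraries, log2(KO + 1) minus log2(WT + 1) in RPKM, for the 36 genes over the floor by role. Filled points are deposited densities with 95% counting intervals as lines, open diamonds the values after adjustment for GC and length, and the dashed line the median for all such genes (-0.072). Dusp5 stands farthest to the right at 0.56 and Fgf1 farthest to the left at -0.50, and the diamonds of Spred1, Mapk8 and Frs2 lie far from their points.

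Of the 7 ligands 2 were higher in KO and 5 lower, near the share of all listed genes (36.1% higher). Gdnf, the signal from progenitors to the ureteric bud (ENSMUSG00000022144, chromosome 15, 7811011 to 7837575, plus strand), was the most abundant ligand listed, at 64.1 RPKM in WT and 59.5 in KO (ratio 0.928, 0.910 to 0.946). Its difference of -0.11 was -0.057 after adjustment, and the authors' deposited table has it 1.04-fold lower. Fgf1, a broadly acting FGF without a signal peptide, measured 11.1 RPKM in WT and 7.53 in KO (ratio 0.680, 0.651 to 0.709). Its difference of -0.50 was the largest on the lower side over the floor, and at -0.65 after adjustment it passed the 1.5-fold size.

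The remaining 5 ligands were under the floor. Fgf8, which is made where progenitors start to form a nephron, measured 3.94 RPKM in WT and 3.29 in KO (ratio 0.835, 0.728 to 0.957). Of the 9 early nephron genes listed, Fgf8 included, 4 were higher and 5 lower in KO, where 36.1% of all listed genes were higher. Fgf11, an intracellular relative of the FGFs, was at 2.93 and 1.76 RPKM (ratio 0.602, 0.536 to 0.676). Fgf5 was at 0.140 and 0.0560 RPKM, or 32 and 12 reads (ratio 0.399, 0.187 to 0.797). Fgf7, in the kidney a stromal signal to epithelium, was higher in KO, at 0.253 and 0.413 RPKM, or 75 and 115 reads (ratio 1.63, 1.21 to 2.21), while all 14 stromal markers were lower. Its difference of 0.17 turned to -0.085 after adjustment. Fgf4 was at 0 in WT, where 3 reads, the limit a count of 0 allows, would be 0.0103 RPKM, and at 0.0231 RPKM in KO, about 6 reads.

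Among the receptors, those over the floor were higher in KO and those under it lower. Among all genes 44.2% were higher over the floor and 36.1% with those under it included, so fewer were higher under it. Fgfr1 (ENSMUSG00000031565, chromosome 8, 25513654 to 25575714, plus strand) measured 57.0 RPKM in WT and 61.2 in KO (ratio 1.07, 1.06 to 1.09). Fgfr2 was at 13.3 and 14.3 RPKM (ratio 1.07, 1.05 to 1.10), and the level of Fgfr1 was 4.29 times that of Fgfr2 in both libraries. The deposited span of Fgfr2 on chromosome 7 runs from 130162451 to 133123350 and its gene model shares exon bases with Ctbp2 on the same strand, so its density is uncertain. Fgfrl1, a receptor without a kinase domain that is needed for nephron formation, was at 60.2 and 62.05 RPKM (ratio 1.03, 1.01 to 1.06). These 3 receptors stayed higher after adjustment (0.021 for Fgfr2 to 0.13 for Fgfrl1). In the same libraries the adaptor Frs2, which links FGF receptors to Ras, was at 13.1 and 14.9 RPKM (ratio 1.14, 1.11 to 1.17), and its difference of 0.18 was -0.0065 after adjustment.

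The 4 receptors under the floor were lower in KO. Of all listed genes 36.1% were higher, and the share among genes under the floor was smaller still. Gfra2, the binding partner of Ret for neurturin (ENSMUSG00000022103, chromosome 14, 70890130 to 70979838, plus strand), measured 2.91 RPKM in WT and 1.23 in KO (ratio 0.421, 0.373 to 0.476). Fgfr4 (ENSMUSG00000005320, chromosome 13, 55152640 to 55168759, plus strand) was at 1.85 and 0.880 RPKM, or 599 and 267 reads (ratio 0.475, 0.409 to 0.549). These were the only members at least 1.5-fold apart on the main measure, 2 of 50 lower and none higher, where the background over all listed genes was 5.49% lower and 0.951% higher. Gfra3, the partner of Ret for artemin, was at 1.58 and 1.18 RPKM (ratio 0.746, 0.621 to 0.897). Ret itself, which marks ureteric bud tips, was at 0.445 and 0.305 RPKM, or about 275 and 177 reads (ratio 0.686, 0.564 to 0.831).

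Ret is one of the 15 ureteric bud markers, of which 14 were lower in KO, where 36.1% of all listed genes were higher. Apart from Etv5, the markers of that list lay between 0.0989 and 7.80 RPKM in WT, with Wnt11 at 3.09 and 2.52 RPKM and Wnt7b, Wnt9b and Aqp2 each under 1 RPKM. The level of Gdnf was 144 times that of Ret in WT and 195 times in KO.

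Of the 10 kinase genes over the floor, 3 were higher and 7 lower by small amounts, with a median of -0.10, which is near the values for all genes over the floor (44.2% higher, median -0.072). Mapk3, which codes for ERK1, measured 31.5 RPKM in WT and 26.8 in KO (ratio 0.851, 0.821 to 0.883), and Map2k2, which codes for MEK2, at 31.3 and 27.9 RPKM (ratio 0.891, 0.871 to 0.911). Mapk11 and Mapk12, genes of p38 kinases that lie side by side on chromosome 15, were at 9.59 and 7.66 RPKM (ratio 0.799) and at 18.4 and 14.9 RPKM (ratio 0.813). Mapk7, the gene of ERK5, was at 23.6 and 22.4 RPKM. Map2k3 (32.5 and 29.97 RPKM) and Map2k7 (25.7 and 24.0 RPKM), upstream kinases of p38 and JNK, had ratios of 0.921 and 0.937. Of the exon bases of Map2k7, 35.2% are shared with Gm49320 on the same strand.

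The 3 kinase genes that were higher were Map2k6, an activator of p38, at 7.06 and 8.26 RPKM (ratio 1.17, 1.10 to 1.24), Mapk6, which codes for ERK3, at 26.5 and 30.6 RPKM (ratio 1.15) and Mapk8, which codes for JNK1, at 7.45 and 8.43 RPKM (ratio 1.13). After adjustment, Map2k6 stayed at 0.21, Mapk6 was at 0.010 and Mapk8, with the low GC content of 40.1%, went from 0.16 to -0.12. Mapk13, the one kinase gene under the floor, was at 0.747 and 0.394 RPKM (ratio 0.527, 0.412 to 0.666). The kinase genes over the floor had a median GC content of 56.0%. After adjustment 2 of 10 were higher, near the 28.1% of all genes over the floor.

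The ETS factors Etv4 and Etv5 act downstream of FGF and Ret signals. Etv4 was lower in KO and Etv5 slightly higher, where 44.2% of all genes over the floor were higher. The difference of Etv4, -0.19, was -0.12 after adjustment and -0.056 with trimmed bin means. That of Etv5, 0.042, was 0.043 and 0.063. Etv4 measured 51.4 RPKM in WT and 44.9 in KO (ratio 0.874, 0.853 to 0.895) and Etv5 at 40.5 and 41.8 RPKM (ratio 1.03, 1.01 to 1.05). Etv5 had more reads in WT (15172) than in KO (14673), and its density in KO rests on the smaller library. In KO Etv4 and Dusp5 were level within counting error, at 44.9 and 44.8 RPKM, whereas in WT Etv4 was well above Dusp5.

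The 7 dual specificity phosphatases without a MAP kinase binding domain, and the 2 genes that are only named for a receptor, complete the set. Dusp3 (11.5 and 10.1 RPKM) and Dusp28 (12.7 and 10.7 RPKM) were lower in KO, with ratios of 0.878 and 0.841. Dusp18 was higher, at 9.18 and 10.4 RPKM (ratio 1.14), and at 0.017 after adjustment. Under the floor, Dusp23 was at 6.41 and 3.97 RPKM (ratio 0.620, 0.553 to 0.695), Dusp14 at 2.33 and 1.31 (ratio 0.561, 0.474 to 0.662) and Dusp15 at 0.887 and 0.432 (ratio 0.487, 0.401 to 0.587).

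Dusp19 was at 4.19 and 4.66 RPKM (ratio 1.11), with a difference of 0.12 that was -0.13 after adjustment. Of these 7 genes 2 were higher in KO and 5 lower, near the 36.1% higher among all listed genes, and over the floor 1 of 3 was higher. Fgfr1op, a centrosomal protein gene, and Fgfr1op2 were at 10.95 and 12.1 RPKM and at 15.4 and 17.4 RPKM. Both were lower after adjustment, at -0.062 and -0.067. Without these 2 genes the median of the members over the floor was 0.078, and 20 of the other 34 were higher.

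**Figure D3:**
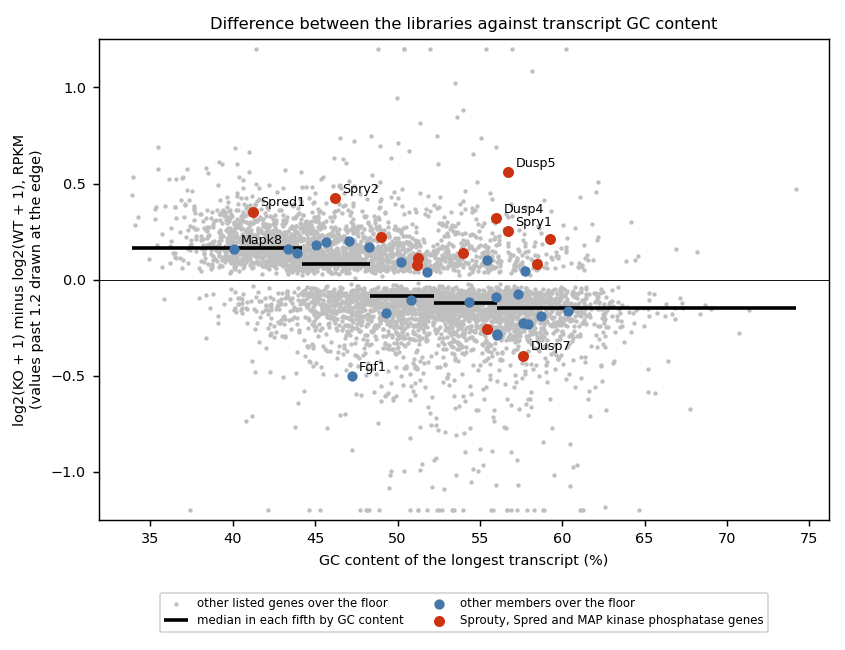
Difference between the KO and WT libraries, log2(KO + 1) minus log2(WT + 1) in RPKM, against the GC content of each gene's longest transcript in percent, for genes over the floor. Grey points are other listed genes, black bars the median in 5 equal groups by GC content (0.17 at the low end, -0.15 at the high end), red points the 13 inhibitors and blue points the other 23 members. Dusp5, Dusp4 and Spry1 lie above the bar at their GC content and Dusp7 below it, while Spred1 and Mapk8 lie where most genes were higher; few genes lie near 0 in this table of genes under a p-value limit.

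Within the members over the floor the difference also moved with GC content, with a Spearman's rho of -0.40 across 36 genes from the same pair of libraries. The plot against GC content shows the inhibitors on both sides of the range. Only 0.320% of genes over the floor lay within 0.03 of 0 on the log2 scale, so a bin's median can jump across that gap and carry the corrected values with it. With trimmed bin means in place of medians, Dusp5 was at 0.70, Spry2 at 0.37, Spry1 at 0.39 and Spred1 at 0.11.

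Related genes outside the set showed no common direction. The values to set beside each list are those of all genes over the floor, 44.2% higher with a median of -0.072. After adjustment for GC and length they were 28.1% higher, again with a median of -0.072. Of 16 FGF and ERK response genes over the floor, 10 were higher and 6 lower, with a median of 0.082. After adjustment 9 of them were higher and 7 lower, with a median of 0.13. Fosb, an immediate early factor, measured 96.3 RPKM in WT and 156 in KO. Osr1, a factor of early kidney mesenchyme, was at 69.2 and 52.95 RPKM, and Myc was at 27.5 and 33.5 RPKM. The immediate early genes Egr1 (419 and 399 RPKM), Ier2 (468 and 417), Jun (212 and 167) and Junb (136 and 111) were lower, and Fos (269 and 295) was higher, as were Egr2 (4.73 and 6.73) and Egr3 (4.70 and 6.94), both under the floor. The dissociation and stress list, which holds Dusp1 and shares Egr1, Fos, Fosb, Jun, Junb and Ier2 with the response list, had 5 of 10 genes over the floor higher and a median of 0.033. The adjusted values for this list were 6 of 10 higher and a median of 0.11. Its summed density was 2103 RPKM in WT and 2039 in KO, and its part in the level of Dusp1 was not tested.

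Of 18 genes of the ERK cascade and its adaptors over the floor, 8 were higher and 10 lower, with a median of -0.086, close to that of all such genes. After adjustment 6 were higher and 12 lower, with a median of -0.12, where 28.1% of all such genes were higher. Cbl, a ubiquitin ligase that takes receptor tyrosine kinases out of signalling, differed most, at 10.1 and 15.97 RPKM, a ratio of 1.58, and the ERK-activated kinase gene Rps6ka3 was at 25.5 and 34.6 RPKM. Of 16 heparan sulfate and co-receptor genes over the floor, 7 were higher and 9 lower, where 44.2% of all such genes were higher. Their median was -0.054. After adjustment 3 were higher and 13 lower, with a median of -0.11. Among these Flrt3, a membrane partner of FGF receptors, was at 7.14 and 9.24 RPKM and the proteoglycan gene Sdc2 at 19.9 and 15.7 RPKM.

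Of 9 other receptor tyrosine kinase and ligand genes over the floor, 5 were higher and 4 lower, where 44.2% of all such genes were higher. Their median was 0.063. After adjustment 4 were higher and 5 lower, with a median of -0.050, where 28.1% of all such genes were higher. Pdgfra, also one of the stromal markers, was at 11.7 and 3.43 RPKM, and Axl was at 25.6 and 19.8 RPKM. The set of 13 inhibitors had a higher median than any of these lists, with no test of the difference. Several of its genes were known to be higher in KO when it was chosen, so this order is not independent evidence.

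**Figure D4:**
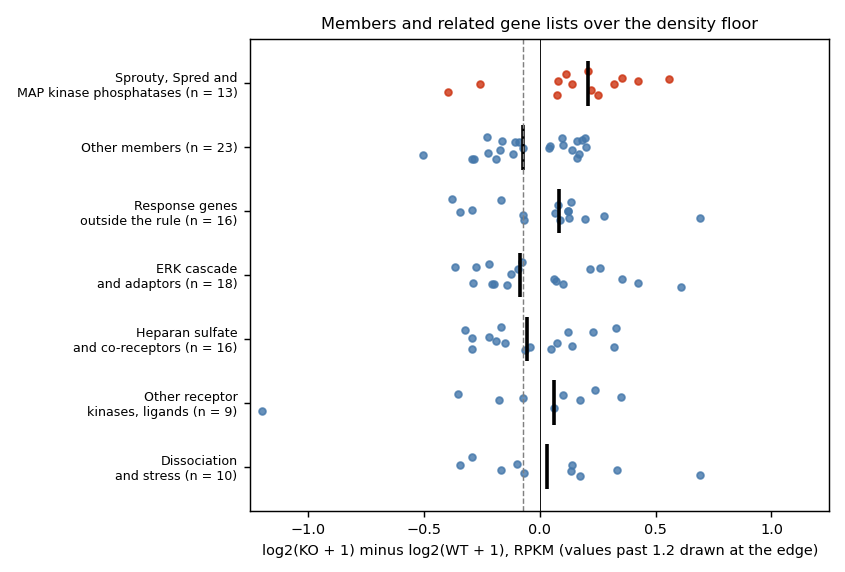
Difference between the KO and WT libraries, log2(KO + 1) minus log2(WT + 1) in RPKM, of each gene over the floor (points) in the inhibitor group, the other members and 5 related lists, with vertical bars at each median and a dashed line at the median for all such genes (-0.072). The inhibitor median of 0.21 lies to the right of the others, which run from -0.086 to 0.082. The inhibitors were grouped with several of their values known. The points of every list lie on both sides of 0.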

How the data were processed

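CASAVA 1.8, Novoalign 2.08.02 and FastQC were used with the builds GRCm38 and mm10, per the submitters' processing notes; how reads were counted, and whether by strand, is not given in the sources. The authors deposited densities, taken here as RPKM from their values, since the file headers name only a density. The deposited table also has the authors' p-value and corrected p-value for each gene, which compare 2 libraries only (largest corrected value 0.0499827), their fold ratio (1.04 times that of the densities), and the same fold as a signed score.

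Density times GENCODE vM21 exon length gave reads, whole within 0.05 of a read in both libraries for 24 of the 50 genes and approximate for the others. For 8 symbols on several rows the row with the highest mean was kept, leaving 10617. Ratios have exact Clopper-Pearson intervals. The adjustment subtracted the median of genes in the same of 10 GC and 4 length bins and restored the overall median. Alternatives were other pseudocounts, scalings, floors, sizes and bin means. Calculations (Python 3.11.15, SciPy 1.17.1) were tested on simulated data. Members and lists were chosen with earlier results of these data known. All 50 members are named; of each related list the 2 genes with the largest difference over the floor are given, and Myc, Egr1, Egr2, Egr3, Ier2, Jun, Junb, Fos, Six2, Cited1 and the ureteric bud markers were named after their values were seen.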

Additional observations from a re-analysis of the deposited data

How the results depend on the processing

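The median difference over the 36 members, 0.087, was 0.16 when both libraries were centred on the median of all genes, 0.14 with the authors' scaling, 0.0016 after adjustment for GC and length, and -0.020 without the floor, which adds 14 genes of low density. The inhibitor median of 0.21 was 0.28 when centred, 0.26 with the authors' scaling and 0.25 with the floor raised to the 75th percentile. Under each setting except that floor 11 of 13 were higher. That floor leaves fewer inhibitors, and all 9 that remain were higher. It also leaves fewer members, of which 13 were higher in place of 22, with a median of 0.090. The share of all genes higher at that floor was not worked out. At 1.5-fold, 0 members were higher and 0 lower; 1 was higher when centred, with the authors' scaling and after adjustment with bin medians or trimmed bin means, 1 was lower after adjustment with bin medians, and 2 were lower without the floor. A size of 0.32 on the log2 scale gave 3 higher and 2 lower, as follows from the smaller size.

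Of 294 differences of single genes under the alternatives, 145 stayed within their counting interval, 137 moved beyond it and 12 changed sign. With bin medians the sign changed for Mapk8 (-0.12), Frs2 (-0.0065), Dusp19 (-0.13), Fgf7 (-0.085), Fgfr1op (-0.062) and Fgfr1op2 (-0.067). With trimmed bin means, added after seeing the data, it changed for Mapk7 (0.022), Mapk8 (-0.081), Map2k7 (0.010), Dusp19 (-0.11), Fgf7 (-0.060) and Fgfr1op2 (-0.016). For these shifts the cause was not tested. No paired analysis was possible because there is 1 library per genotype, and no library could be left out.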
